A study of Mus musculus with 2 samples.

Results

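The epidermal genes described here encode the structural proteins of the outermost skin layers: the filaggrin-type genes Flg, Flg2, Hrnr, Rptn, Tchh and Tchhl1, the envelope genes Lor and Ivl, and Crct1 and Kprp. They are 10 of 22180 genes that had a probe set annotated with exactly 1 symbol, and each of them had 1 such probe set. RNA was compared between a three-dimensional skin model made from cells of Itih5 knockout mice and a model made from cells of wildtype mice, both sampled at day 7 by their titles, with 1 array for each model. Keratinocytes and fibroblasts of both came from untreated adult animals and had been passaged serially before use. Itih5 encodes a heavy chain of the inter-alpha-trypsin inhibitor family, and the series asks how its product, which binds hyaluronan, affects the skin. The removed part of Itih5, the number of mice behind each model and how the models were cultured are not stated in the labels. Itih5 itself read 30.4 in the knockout against 29.8 in the wildtype model, below the expression threshold on both arrays, so its probe set checks neither label.

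Intensities had lost their decimal point in the deposited table, and the point was restored as described under the processing. Where the digits of one of the 10 genes allow several places, the likeliest is given with its probability and the other values are stated. Values of other genes are given at their likeliest place, which had a probability of at least 0.95 unless a gene is called undecided, and their other places are not listed. A gene counted as expressed if at least 1 of its intensities reached 47.4, the median over all values, and the 5th percentiles of the arrays, 21.4 in both models, mark the background. Each difference is a log2 intensity of the knockout model less that of the wildtype model. With 1 array for each group there is no replicate error and no p-value, and the differences describe these arrays. Among 12493 expressed genes the median difference was 0.04, and the median size of a difference in either direction was 0.26.

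When a keratinocyte leaves the granular layer, transglutaminases crosslink involucrin, loricrin and partner proteins into an envelope under the cell membrane. Filaggrin, cut from the long precursor profilaggrin, bundles the keratin filaments inside and is later broken down to free amino acids that hold water. Filaggrin belongs to the S100-fused proteins, which join a calcium-binding S100 domain to long repeats. Their genes lie side by side and, with the other envelope genes, form the epidermal differentiation complex, on chromosome 3 in the mouse.

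Rptn, Lor and Hrnr were far lower in the knockout model, Kprp was lower to a smaller degree, and Crct1 was lower at either place its point could take. Flg, Flg2, Tchh and Tchhl1 lay close to background in both models, and Ivl could not be settled between equal and much lower. Of the 10 genes, 9 had a restored point and 6 of these were expressed. Among the 6, 4 were lower by 2-fold or more, beside 3.36% of all expressed genes, and 0 were higher by as much, beside 3.86%. Rptn and Lor were lower by 8-fold or more, as were 0.392% of expressed genes, while 0.04% were higher by 8-fold or more. The median difference of the 6 genes was -1.82. Hrnr and Flg were expressed through the wildtype model only, which by itself places them below 0, and the other 5 expressed genes, Crct1 included, reached the threshold on both arrays.

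**Figure D1:**
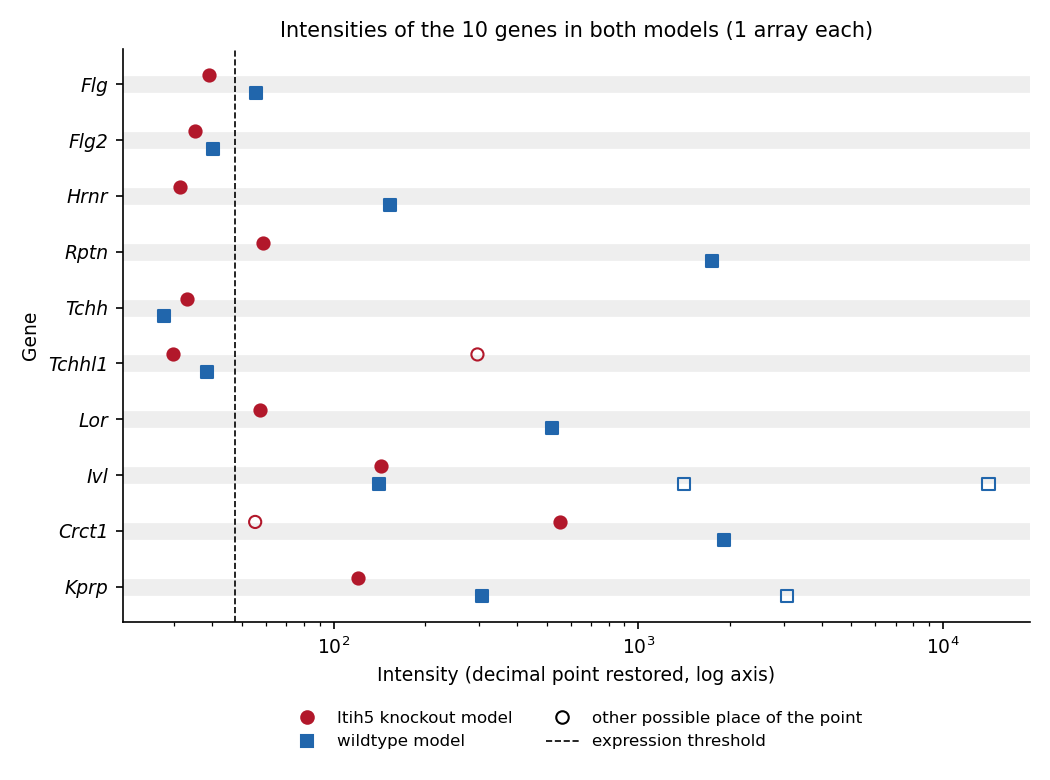
Intensity on a log axis for each of the 10 genes, knockout model (red circles) above wildtype model (blue squares), with open symbols for other possible places of the decimal point and a dashed line at the expression threshold of 47.4. Rptn, Lor and Hrnr have 1 place each and lie far apart, whereas Flg2, Tchh and Tchhl1 stay left of the line in both models at their likeliest places.

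Rptn, the repetin gene (probe set 17399981), encodes an S100-fused envelope precursor known in mouse from the tongue and the upper epidermis. It read 58.6 in the knockout model against 1743 in the wildtype model, 29.7-fold lower (difference -4.89). Only 1 place of the point was possible on each array, and 3 of the 12493 expressed genes had a lower difference. The knockout value stood just above the threshold, so repetin gave little signal there, whereas the wildtype value lay far above background. With the 5th percentile of each array subtracted as background, the difference was -5.53.

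Hrnr (probe set 17399972) encodes hornerin, an S100-fused protein with glycine- and serine-rich repeats that is built into the envelope. Its intensity was 31.2 in the knockout model, below the threshold, against 153 in the wildtype model, a difference of -2.29 with 1 possible place on each array. Flg, the profilaggrin gene (probe set 17399952), read 38.8 in the knockout model against 55.7 in the wildtype model, a difference of -0.52. Profilaggrin therefore gave little signal in either model, and its 2 values straddled the threshold. Flg2, whose product resembles filaggrin and hornerin, read 35.0 in the knockout against 40.1 in the wildtype model, with both values under the threshold. After the 5th percentile of each array was subtracted, the difference of Hrnr was -3.04 and that of Flg -0.97, still under 2-fold.

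Tchh encodes trichohyalin, which hardens the inner root sheath of the hair and the filiform papillae of the tongue, and Tchhl1 is its shorter relative. Tchh read 33.0 in the knockout model against 27.8 in the wildtype model, a difference of 0.25. Tchhl1 read 29.6 in the knockout against 38.5 in the wildtype model, with a probability of 0.998. The other place for the knockout value, 296, had a probability of 0.0024 and would turn the difference to 2.94. At the likeliest places both genes lay under the threshold in both models. Among 17 genes listed as partners of trichohyalin in the hair follicle, 9 were expressed, 1 was lower by 2-fold or more and 0 higher by as much, with a median difference of -0.37. Foxn1, a transcription factor gene of hair and epidermal differentiation, was the lower one, with 75.0 in the knockout against 184 in the wildtype model. Padi3, which encodes a peptidylarginine deiminase that modifies trichohyalin, read 135 in the knockout against 208 in the wildtype model, under 2-fold. Hoxc13, also on this list, was higher by less than 2-fold, with 87.6 in the knockout against 59.6 in the wildtype model. Of the 9 expressed genes, 5 lay below 0 and 4 above. Krt25, Krt26, Krt27, Krt28, Krt71, Krt72 and Krt74, keratins of the inner root sheath, were under the threshold in both models. Krt73, of the same group, reached it in the knockout model only, with 48.8 there against 41.5 in the wildtype model.

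Lor (probe set 17407378) encodes loricrin, the glycine-rich protein that makes up most of the envelope's mass in the epidermis. It read 57.3 in the knockout model against 522 in the wildtype model, 9.11-fold lower (difference -3.19). A shift of the point by 1 digit is a factor close to this fold, but the digits of Lor allow 1 place on each array. Of all expressed genes, 37 had a lower difference. As with Rptn, the knockout value lay just above the threshold, and the difference was -3.80 after the same subtraction.

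Ivl (probe set 17407418) encodes involucrin, an early scaffold of the envelope onto which loricrin and other proteins are crosslinked. Its knockout intensity, 143, had 1 possible place. Its wildtype intensity was 141, 1411 or 14112. The likeliest value, 141, gives a difference of 0.02 with a probability of 0.995, whereas 1411 would make Ivl 9.87-fold lower with a probability of 0.0046. These probabilities come from the differences of all probe sets on the array. Among the neighbouring genes described further on, large falls were far more frequent than over the whole array, and the probability does not take this into account. In simulated data, genes made to differ by about 1 digit were misplaced far more often than others. Equal levels of Ivl in both models are therefore the likeliest reading but not a firm one.

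Crct1 (probe set 17407496) encodes a small cysteine-rich protein of the envelope gene cluster. Its wildtype intensity was 1908, and its knockout intensity was 552 with a probability of 0.908 or 55.2 with a probability of 0.092, so its point is undecided and it was left out of the counts. Either place put Crct1 lower in the knockout model, 3.45-fold or 34.5-fold. Kprp (probe set 17407476) encodes keratinocyte proline-rich protein, found in the granular and cornified layers. It read 121 in the knockout model, against 307 in the wildtype model with a probability of 0.977, 2.55-fold lower (difference -1.35). The other wildtype value, 3070, would make it 25.5-fold lower. Kprp and Crct1 thus differed in the same direction at all their possible places, and 5 of the 10 genes, Rptn, Lor, Hrnr, Crct1 and Kprp, were at least 2-fold lower whichever place was taken. The members nearest to the 2-fold limit were Kprp on the lower side, at -1.35, and Flg on the near side, at -0.52.

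**Figure D2:**
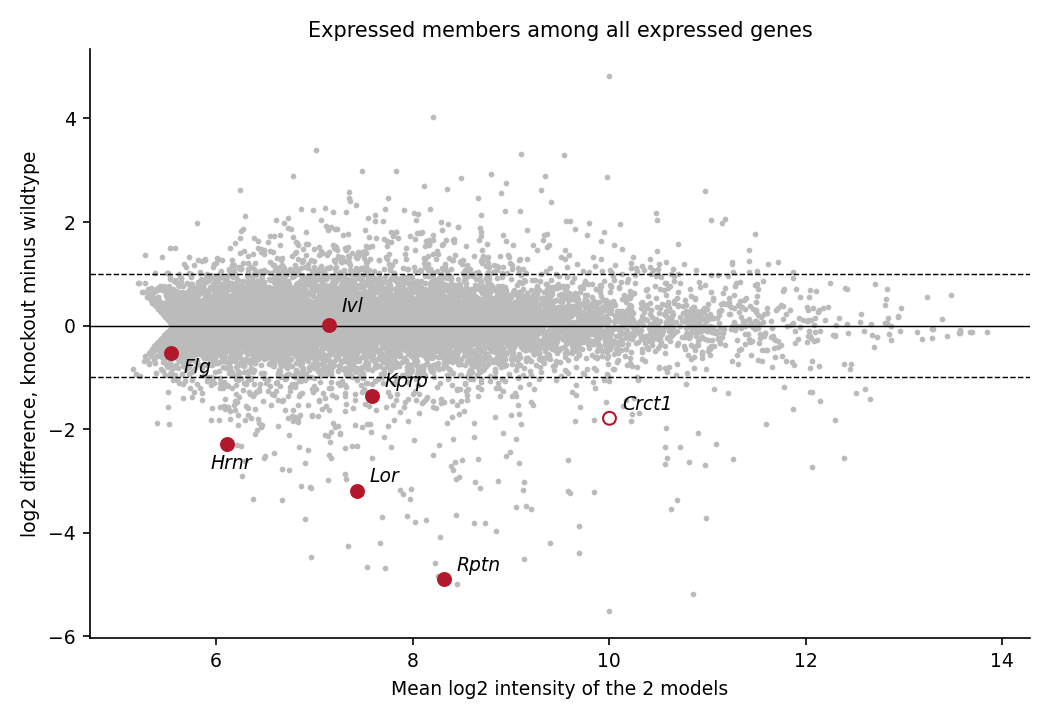
Difference (log2, knockout minus wildtype) against mean log2 intensity for the expressed genes with a restored point (grey), the 6 expressed members among them (filled red) and Crct1 with its undecided point at the likeliest place (open red). Dashed lines mark 2-fold, and Rptn lies at -4.89, where 3 expressed genes are lower.

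The 3 genes closest to Rptn by both log2 intensities, among 7221 expressed genes with 1 possible place, were Lce3f, Nccrp1 and Sdr9c7. Lce3f, of the late cornified envelope family, had 62.4 in the knockout against 1971 in the wildtype model, at a distance of 0.20 log2 units from Rptn. Nccrp1 had 75.5 in the knockout against 1271 in the wildtype model, and Sdr9c7, which encodes a dehydrogenase of the skin lipid barrier, 76.8 in the knockout against 1037 in the wildtype model. Likeness here rests on 2 arrays only.

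The 10 genes lie in 1 stretch of chromosome 3 that opens with Lor, closes with Tchhl1 and holds 51 protein-coding genes in the RefSeq table of assembly GRCm38.p6, which was used for the order only. Of the other 41 genes of the stretch, mostly Sprr and Lce genes, 34 had a probe set of their own, 6 of these were undecided, 7 were below the threshold and 21 were expressed. Among the 21, 14 were lower by 2-fold or more and 0 higher by as much, with a median difference of -1.72. Of the 21, 9 were expressed through the wildtype model only, which places them below 0, and they include 5 of the 14. Of the 12 that reached the threshold on both arrays, 9 were lower by 2-fold or more. Among the 10 of the 21 with 1 possible place, 5 were at least 2-fold lower and 0 higher by as much. Some of these 10, Sprr3 and Lce3b among the lower ones, passed the threshold through the wildtype model only. The undecided genes of the stretch lay on both sides of 0 at their likeliest places, for example Lce1m at 1.92 and Sprr2d at -1.47.

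The row of S100-fused genes runs Crnn, Flg2, Flg, Hrnr, Rptn, Tchh and Tchhl1. Crnn, the cornulin gene and the S100-fused gene outside the 10, read 36.1 in the knockout against 51.3 in the wildtype model, a difference of -0.51. Going along the row, differences were -0.51, -0.20, -0.52, -2.29, -4.89, 0.25 and -0.38. The pair in the middle, Hrnr and Rptn, was the part of the row with a clear signal in the wildtype model, at 153 and 1743, whereas the other 5 genes read at most 55.7 on any array at their likeliest places. A fall could hardly have been seen in Flg2, Tchh and Tchhl1 at such levels. Flg and Crnn, at 55.7 and 51.3 in the wildtype model, stood somewhat above the background of 21.4 and left room for a limited fall. A fall as large as that of Hrnr or Rptn could not have been seen in any of the 5, so the row does not show whether neighbours changed alike.

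**Figure D3:**
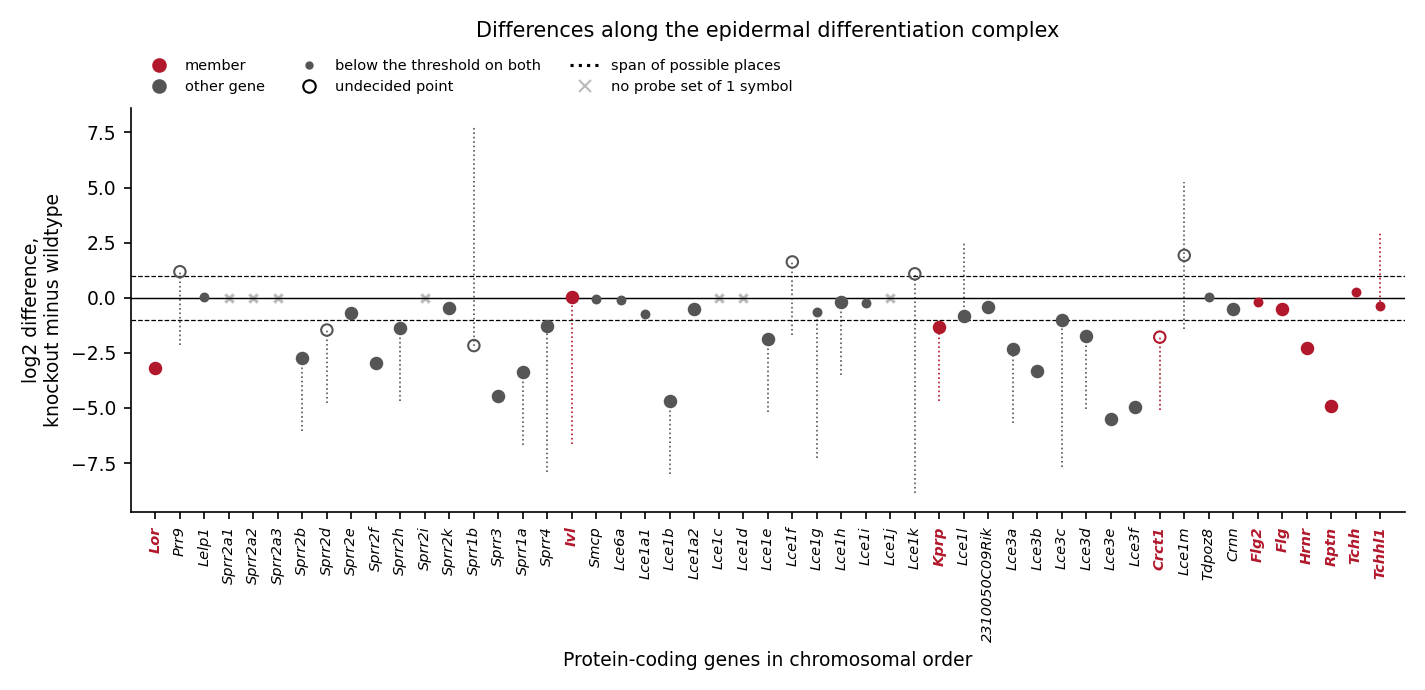
Difference (log2, knockout minus wildtype) of the 51 protein-coding genes between Lor and Tchhl1 in chromosomal order, members in red, small points for genes under the threshold on both arrays, open points where the decimal point is undecided and dotted lines over all possible places. Hrnr and Rptn, at -2.29 and -4.89, stand between neighbours within 1 log2 unit of 0 that lay near background, and the dotted line of Ivl reaches -6.62.

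Genes that act on these proteins were counted next, from lists whose choice came with earlier results of these arrays in view. Of 14 expressed genes of profilaggrin processing and breakdown, 6 were lower by 2-fold or more and 0 higher by as much, with a median difference of -0.70. Klk14, a kallikrein protease of the stratum corneum, read 307 in the knockout against 11121 in the wildtype model. Prss8, a membrane-anchored protease needed for profilaggrin cleavage in mouse epidermis, read 197 in the knockout against 1609 in the wildtype model. Spink5, which encodes the inhibitor of epidermal kallikreins LEKTI, read 599 in the knockout against 3838 in the wildtype model, and Casp14, the caspase of cornification, 101 in the knockout against 250 in the wildtype model. Asprv1 and Blmh, which encode a retroviral-like protease and a hydrolase of the filaggrin pathway, were 2.14-fold and 2.34-fold lower. St14, the matriptase gene, read 590 in the knockout against 855 in the wildtype model, and Furin, a proprotein convertase gene, 671 in the knockout against 613 in the wildtype model.

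Of 15 expressed genes of envelope crosslinking and partner proteins, 10 were lower by 2-fold or more and 0 higher by as much, with a median of -1.44. Scel, the sciellin gene, read 117 in the knockout against 1824 in the wildtype model, 15.6-fold lower. Cdsn, which encodes the adhesive protein corneodesmosin, read 463 in the knockout against 5389 in the wildtype model. Elf3, a transcription factor gene of epithelial cells, was 3.88-fold lower, and Tgm5, a transglutaminase gene, 3.68-fold lower. Tgm3, the transglutaminase gene linked to trichohyalin and loricrin, read 67.1 in the knockout against 97.0 in the wildtype model, under 2-fold. Evpl and Ppl, which encode the scaffold proteins envoplakin and periplakin, were 2.72-fold and 3.58-fold lower. Krt10, a keratin that filaggrin bundles, read 333 in the knockout against 850 in the wildtype model, and its partner Krt1 39.8 in the knockout against 54.7 in the wildtype model. Of this list 6 genes were undecided, among them Tgm1, the main transglutaminase gene of the envelope.

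The late cornified envelope and small proline-rich genes, crosslinked beside loricrin, were counted as lists too. The 14 lower genes among the others of the stretch were all Lce or Sprr genes. The counts here therefore largely repeat that one. Of 11 expressed Lce genes, 8 were at least 2-fold lower, with a median of -1.88, and of 10 expressed Sprr genes 8, with a median of -1.93, while 0 of either list were at least 2-fold higher. Of those expressed, 4 Lce and 3 Sprr genes passed the threshold through the wildtype model only, and 3 and 2 of them are among the lower ones. The 3 undecided Lce genes, Lce1f, Lce1k and Lce1m, were higher at their likeliest places, at 1.62, 1.08 and 1.92, though each has a place that would put it lower. The Lce median was -1.37 with these included, -1.02 with no expression filter and -4.16 with 1 possible place only. Their lowest differences were those of Lce3e at -5.51 and Sprr3 at -4.46, on either side of Rptn at -4.89. Sprr2e, at -0.68, was under 2-fold with 2811 in the knockout against 4513 in the wildtype model.

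Of 27 expressed genes for regulators of epidermal differentiation, 10 were lower by 2-fold or more and 0 higher by as much, with a median of -0.60. Grhl3, a grainyhead factor gene needed for the mouse skin barrier, read 207 in the knockout against 1178 in the wildtype model. Ovol1 read 77.4 in the knockout against 387 in the wildtype model, and Klf4, whose factor is needed for barrier formation in mouse, 284 in the knockout against 1062 in the wildtype model. Fosl2 and Junb, which encode subunits of AP-1, were under 2-fold. Fosl2 read 699 in the knockout against 1082 in the wildtype model, and Junb 908 in the knockout against 1294 in the wildtype model.

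Markers of the cells in the models also differed between the arrays. Of 15 keratinocyte markers of all layers 4 were undecided, and the other 11 were expressed, lay below 0 in every case and included 6 lower by 2-fold or more, with summed intensities of 15101 in the knockout against 32420 in the wildtype model and a median difference of -1.23. Of 8 basal keratinocyte markers 3 were undecided. Of the 5 expressed ones 3 were at least 2-fold lower, among them Krt14, the basal keratin gene, with 4076 in the knockout against 9538 in the wildtype model. Dst, also of these 5, lay above 0, with 469 in the knockout against 322 in the wildtype model. Of 14 dermal fibroblast markers 2 were undecided and 1 was under the threshold, and the other 11 lay above 0 and included 2 higher by 2-fold or more, with summed intensities of 16323 in the knockout against 9362 in the wildtype model, led by Vim with 6479 in the knockout against 3665 in the wildtype model. Rptn and Lor had lower differences than each of the 11 keratinocyte markers, the lowest of which was Ovol1 at -2.32, close to Hrnr at -2.29. Of these markers, Ovol1, Elf3, Ehf, Grhl2 and Sfn are also on the regulator list. Dsp, Pkp1 and Elf3 are also on the envelope list, and Krt14 is on the basal list. The counts of these lists are therefore not independent. Fewer keratinocytes and less RNA in each cannot be told apart in bulk RNA, and the part of the cell makeup in the differences of the members was not tested.

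**Figure D4:**
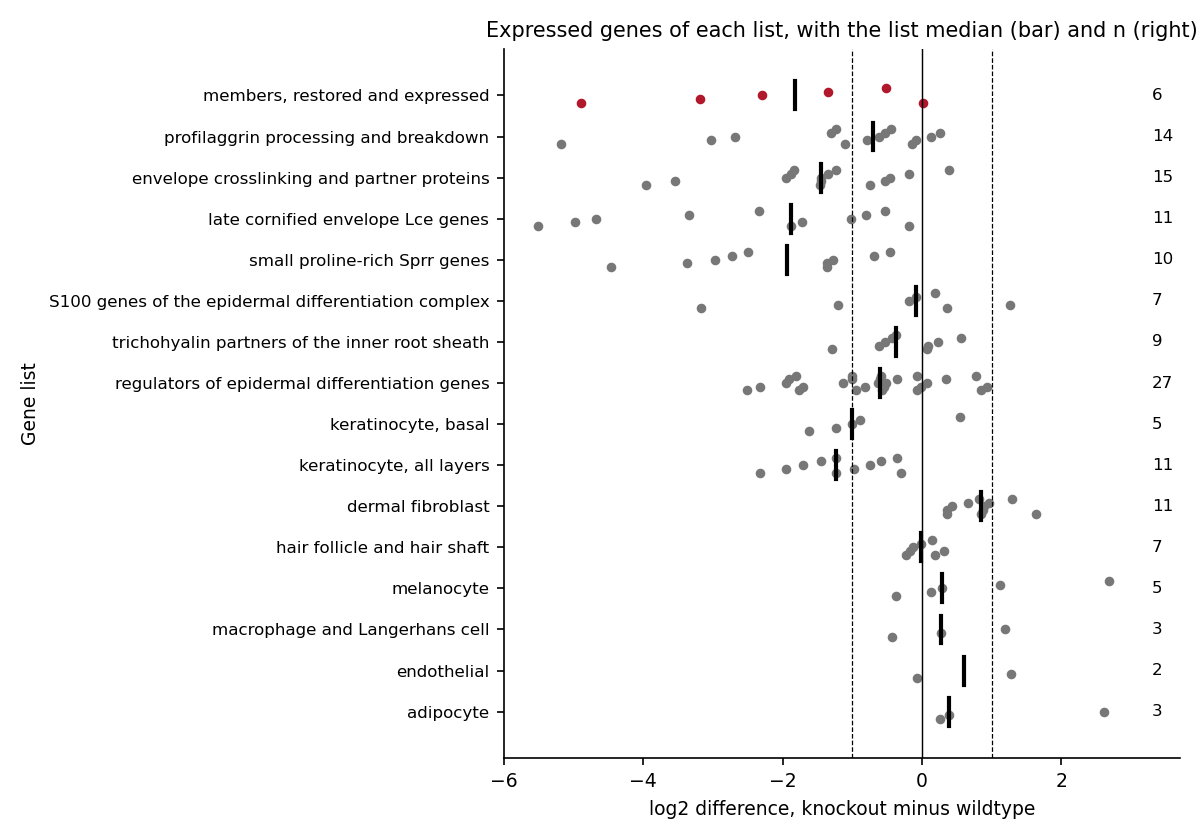
Difference (log2, knockout minus wildtype) of each expressed gene (points) by list, with the median of the list as a bar and the number of expressed genes at the right; dashed lines mark 2-fold. The 6 members have a median of -1.82, the Lce and Sprr lists -1.88 and -1.93, keratinocyte markers of all layers -1.23 and fibroblast markers 0.84.

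The promoters of these genes were compared for short motifs. RefSeq promoters of assembly GRCm38.p6 were at hand for 8 of the 10 genes, all but Crct1 and Kprp. The 250 bases before each gene start were searched on both strands. The promoters of Rptn, Lor and Hrnr, the genes with the lowest differences among those with 1 possible place, and of Ivl, the gene that may not differ, are shown, 5′ to 3′ along the gene's strand, with matches to TGANTCA and TATAAA in capitals.
Rptn: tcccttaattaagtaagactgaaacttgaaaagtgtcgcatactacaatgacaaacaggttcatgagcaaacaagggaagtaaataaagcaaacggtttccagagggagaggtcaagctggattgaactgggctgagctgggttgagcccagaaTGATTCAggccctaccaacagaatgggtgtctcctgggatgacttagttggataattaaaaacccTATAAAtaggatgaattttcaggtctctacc
Lor: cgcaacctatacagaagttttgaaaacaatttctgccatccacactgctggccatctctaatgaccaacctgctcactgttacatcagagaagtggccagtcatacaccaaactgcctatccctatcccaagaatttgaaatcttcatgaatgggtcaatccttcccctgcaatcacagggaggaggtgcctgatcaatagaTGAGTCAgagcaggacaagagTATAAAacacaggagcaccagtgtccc
Hrnr: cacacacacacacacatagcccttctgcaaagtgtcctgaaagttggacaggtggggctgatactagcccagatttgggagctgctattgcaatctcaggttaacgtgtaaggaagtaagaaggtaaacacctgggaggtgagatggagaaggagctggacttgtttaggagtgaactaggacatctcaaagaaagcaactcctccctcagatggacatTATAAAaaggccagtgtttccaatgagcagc
Ivl: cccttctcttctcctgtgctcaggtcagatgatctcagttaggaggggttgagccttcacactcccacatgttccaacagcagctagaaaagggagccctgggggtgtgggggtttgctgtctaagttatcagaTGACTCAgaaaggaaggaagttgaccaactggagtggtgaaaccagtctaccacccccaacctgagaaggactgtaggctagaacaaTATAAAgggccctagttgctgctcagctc
They lie on chromosome 3, Rptn at chr3:93393449-93393698 and Hrnr at chr3:93319499-93319748 on the plus strand, and Lor at chr3:92083143-92083392 and Ivl at chr3:92573736-92573985 on the minus strand.

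TGANTCA, a looser form of the AP-1 consensus TGACTCA, was found in 6 of the 8 promoters, those of Lor, Ivl, Flg2, Flg, Rptn and Tchhl1, and in 6.75% of all 32851 RefSeq promoters. Of 34 Lce and Sprr promoters, 26.5% held it. With TGACTCA and its reverse complement TGAGTCA alone, the matches were Lor and Ivl, 2 of 8, against 4.46% of all promoters. The matches in Flg2, Flg, Rptn and Tchhl1 were TGAATCA or TGATTCA, outside this consensus. TATAAA was found in 5 of the 8, in Lor, Ivl, Flg, Hrnr and Rptn, and in 12.4% of all promoters. AACCGGTT, a grainyhead-type motif, was found in 0 of the 8 and in 0.116% of all promoters. A match is a string of letters and not a bound site. Of the genes that were lower by 2-fold or more and had a promoter at hand, Rptn and Lor have a match to TGANTCA and Hrnr has none. Of the rest, Ivl, Flg, Flg2 and Tchhl1 have a match and Tchh has none.

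In the S100-fused genes the match lay at a similar distance, beginning 69 to 103 bases before the start in Flg2, Flg, Rptn, Tchhl1 and Crnn, 5 of the 7. Of all promoters 1.13% hold a match in that window, which was set from these genes. The 30 bases around the match in Flg were slid without gaps along the other promoters. The best places are shown for the 5 members that were more like Flg than nearly all other promoters, with the 7 letters aligned to the Flg match in capitals.
Flg: gttaagaaTGAATCAgaccatcccacagag
Flg2: attagaaaTGAATCAgcccatcccacagaa
Hrnr: tttaggagTGAACTAggacatctcaaagaa
Tchhl1: ggtggtgaTGAATCAggtcattacacccag
Rptn: gcccagaaTGATTCAggccctaccaacaga
All are on the plus strand of GRCm38.p6, at chr3:93273435-93273464 for Flg, chr3:93197196-93197225 for Flg2, chr3:93319663-93319692 for Hrnr, chr3:93468659-93468688 for Tchhl1 and chr3:93393595-93393624 for Rptn. The stretch of Flg2 shared 25 of 30 letters with that of Flg, which 0 of 32842 promoters outside the family reached. Hrnr shared 20, reached by 14 other promoters, with the motif letters altered to TGAACTA. Tchhl1 shared 19 letters, a likeness that 0.320% of other promoters reached, and Rptn shared 18, which 1.48% reached. Tchh and Crnn each shared 16, a likeness seen in 18.7% of other promoters, although Crnn holds the letters TGAATCA. Lor, which is not an S100-fused gene, shared 17, more than Tchh or Crnn, and Ivl shared 15. The likeness to Flg was therefore not found in all S100-fused genes. The closest likeness to Flg was thus in Flg2, a gene near background. Rptn, the gene with the lowest difference, had a weaker likeness that 1.48% of other promoters also reached. Whether these stretches share an origin was not tested.

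**Figure D5:**
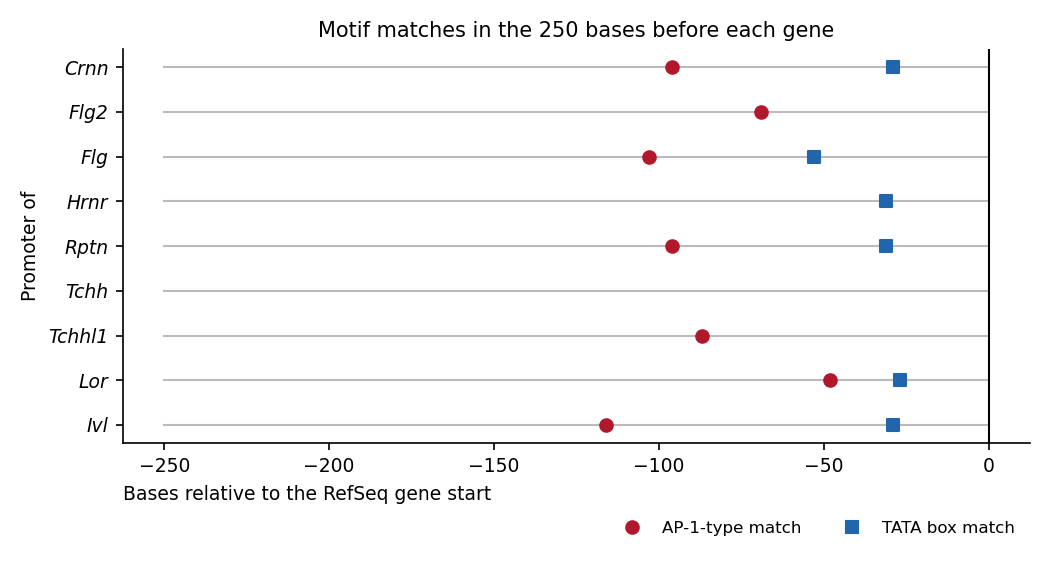
Places of AP-1-type (TGANTCA, red circles) and TATA box (blue squares) matches in the 250 bases before the RefSeq start of 8 members and Crnn, in bases relative to the start. Only the AP-1-type matches of Lor and Ivl have the consensus letters. In the S100-fused genes Crnn, Flg2, Flg, Rptn and Tchhl1 the AP-1-type match begins 69 to 103 bases before the start, and Hrnr and Tchh have none.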

How the data were processed

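Total RNA of both models was treated with DNase, copied to sense-strand cDNA and labelled for Affymetrix whole-transcript arrays, per the labels' protocols. The deposited table holds probe set intensities on a linear scale. The scanning, summary and normalization steps were not given in the sources used here. A decimal point was missing from 67457 of 67586 values. A place was possible if it gave the shortest decimal spelling of a single-precision number between 18 and 20000 that is 2 raised to a single-precision exponent. All values had a possible place. Pairs of places were weighed by the joint distribution of level and absolute difference in bins of 0.25 log2 (expectation maximisation, 25 rounds, whole table), and kept at a probability of at least 0.95. This restored 31813 of 33793 probe sets (94.1%), with 53.5 expected to be misplaced, and 20952 had 1 place on both arrays. The method was tested on simulated data, where genes made to differ by about 1 digit were misplaced far more often than other genes.

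Probe sets were named from the platform annotation. Those with several symbols (1814) were not used, and a gene with more than 1 probe set was read from the brightest. No further normalization was applied, since the medians were 47.1 in the knockout against 47.6 in the wildtype model. The number of arrays limits the precision. Calls used a size of 2-fold on log2 intensities. Python 3.11.15, NumPy 2.4.6 and pandas 2.3.3 were used. The members, lists and tests were chosen with earlier results of these data known. Of each list of pathway genes, up to 4 with the largest differences were named, with genes 2-fold apart the other way. Of each cell type list, up to 3 markers that were bright or 2-fold apart were named. Other genes named from the lists (Asprv1, Blmh, St14, Furin, Tgm3, Tgm1, Evpl, Ppl, Krt1, Krt10, Padi3, Hoxc13, inner root sheath keratins, Sprr2e, Sprr2d, Lce1f, Lce1k, Lce1m, Fosl2, Junb, and, among cell markers, Dst, Tyr, Tyrp1, Dct, Sox10, Adipoq, Cd68, Cd207 and Vwf) were chosen after their values were seen.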

Additional observations from a re-analysis of the deposited data

How the results depend on the processing

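Under 12 planned settings, 3 to 5 genes were lower by the size limit or more, against 4 of 6 in the main analysis, and 0 were higher. The number of members counted changed with the setting. It was 3 of 4 with 1 possible place only and 4 of 9 with no expression filter. Shares over all expressed genes are not given for these settings. The settings were other minimum probabilities and places of the point, quantile normalization, median centring, a pseudocount of 16, background subtraction, other filters, the mean over probe sets, and size limits of 1.5-fold and 3-fold. A further 3 settings were chosen after seeing the data. With the members at the places that give the lowest difference 6 were lower, and at those that give the highest difference 5 were lower and 1, Tchhl1, was higher. With probabilities weighted by the spacing of exponents 5 were lower, since Crct1 then counted as restored. The median of -1.82 depended on which genes were counted. It was -2.29 at a minimum probability of 0.99, -2.74 with 1 possible place only, -2.27 with both arrays at the threshold, and -0.52 with no expression filter, where the genes near background enter. It was -1.54 with the pseudocount, -2.28 after background subtraction, and -4.67 at the lowest places. Of 130 single values of the members and Itih5 under the alternatives, 12 moved by more than 0.26, the median absolute difference of expressed genes, and 0 that had passed 2-fold turned sign. Of 193 list medians 21 moved and 0 past 2-fold turned sign, the Lce median ranging from -4.16 to -1.02. Some medians under 2-fold did turn sign. With 1 possible place only, the trichohyalin partners went from -0.37 to 0.09 and the S100 genes from -0.08 to 0.36. With no expression filter, the endothelial median went from 0.60 to -0.13 and that of macrophages and Langerhans cells from 0.27 to -0.17. A promoter window of 300 bases, also added later, left 6 of 8 members with TGANTCA. No paired analysis was possible because there was 1 array per model, which also meant that none could be left out. Differences are compressed near the background of 21.4.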

Other observations

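The S100 genes of the same complex lay on both sides of 0. Of 7 expressed ones, 2 were lower and 1 was higher by 2-fold or more in the knockout, the median being -0.08, and 4 further S100 genes were undecided. S100a7a, which encodes an antimicrobial psoriasin-type protein, read 185 in the knockout against 1668 in the wildtype model, and S100a16 94.4 in the knockout against 218 in the wildtype model. S100a13, whose product takes part in the release of growth factors and interleukin-1 alpha, read 313 in the knockout against 130 in the wildtype model. S100a4, also on the fibroblast list, read 125 in the knockout against 97.1 in the wildtype model.

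Markers of other cells were mostly close to the threshold. None of the 7 expressed hair follicle and hair shaft genes was 2-fold apart (median -0.01). Of 5 expressed melanocyte genes, 4 lay above 0 and 1, Sox10, lay below 0 at -0.37. Mlana, with 705 in the knockout against 109 in the wildtype model, was higher by 2-fold or more. So was Mitf, with 464 in the knockout against 215 in the wildtype model. Tyr, Tyrp1 and Dct were below the threshold in both models. Fabp4, on the adipocyte list, read 4974 in the knockout against 816 in the wildtype model, and Adipoq was below the threshold in both. Of 3 expressed macrophage and Langerhans cell genes, 2 lay above 0, and Cd14 among them was 2.29-fold higher. Cd68, the brightest of the 3, lay below 0, with 861 in the knockout against 1161 in the wildtype model. Cd207, the langerin gene, was below the threshold in both models. Of 2 expressed endothelial genes, Kdr read 87.4 in the knockout against 36.1 in the wildtype model. The other gene, Vwf, lay at -0.07.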
